A study of Mus musculus with 12 samples.

Results

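Transcript levels of splenic CD8+ dendritic cells were compared with those of splenic CD4- CD8- double-negative (DN) dendritic cells after both had been cultured. The comparison used 4 of the 12 arrays of the series, 2 of cultured CD8+ cells and 2 of cultured DN cells, chosen by their titles, and the values of all probe sets that are not controls. All were dendritic cells of mouse spleen, sorted for a high level of CD11c, the integrin used to gate dendritic cells, and then by CD4 and CD8. Cultured cells were held in tissue culture medium for 2 h at 37 °C before processing, and fresh cells were processed at isolation. The other 8 arrays were of fresh CD4+, fresh CD8+, fresh DN and cultured CD4+ cells, 2 of each. No strain, age, genetic change or added stimulus is given in the labels, and the labels leave unsaid if replicates were separate animals. The p-values therefore rest on the spread between these samples alone, and that spread may be technical.

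Conventional dendritic cells take up antigen in the tissue and present it to T cells, and those of the mouse spleen fall into subsets that carry different surface markers. The CD8+ subset is known for engulfing dying cells and cross-presenting their antigens on MHC class I, under transcription factors such as Irf8, Batf3 and Id2. The CD8-negative subsets are known for presenting antigen on MHC class II to CD4+ T cells, and Irf4, Relb and Notch signals take part in their development. Taking spleen dendritic cells into culture starts their maturation even without an added stimulus.

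The 4 arrays were alike in scale, with a trimmed mean intensity of 150.1 to 150.2 and 35.7% to 38.4% of the 12422 probe sets that are not controls above the detection floor of 91.37. Noise, measured by the negative values of an array (their root mean square), was 60.2 and 46.0 on CD8+ replicates 1 and 2, and 82.5 and 61.4 on DN replicates 1 and 2. The intensity of Gapdh controls at the 3' end over that at the 5' end, which rises as RNA is degraded, was 1.34 on DN replicate 1 and 0.905 to 1.02 on the other 3 arrays. The same ratio for actin controls was 0.919 on DN replicate 1 and 1.15 on DN replicate 2. On CD8+ replicates 1 and 2 it was 0.933 and 0.947. Gapdh and actin thus ranked the DN arrays in opposite order. Spearman's rank correlation between replicates was 0.909 for CD8+ and 0.881 for DN cells, and between the subsets it was 0.821 to 0.876. Precision was limited by the number of arrays, which was 2 per group.

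The labels were first set against the genes of the sort. Cd8a, which encodes the CD8 alpha chain, had intensities of 890.9 and 679.4 on the CD8+ arrays and -17.9 and 31.3 on the DN arrays. Both DN arrays lay below the floor, and the CD8+ arrays were at least 8.05-fold higher (limma, adjusted p = 0.00265). Cd4 had 59.7 and 105.6 in CD8+ and 90.5 and -27.6 in DN cells (adjusted p = 0.634), near or below the floor in both subsets, against 270.9 and 112.2 in cultured CD4+ cells. Itgax, which encodes CD11c, had 874.5 and 1308.7 in CD8+ and 1447.5 and 1336.9 in DN cells, a log2 difference of -0.38 ± 0.40 (SE, adjusted p = 0.835). Cd8a thus separated the subsets in the direction of their labels, and Itgax was well above the floor in both. Cd8b1 did not pass the filter on dim probe sets (28.8 and 18.8 in CD8+, -21.6 and -31.1 in DN cells) and was not tested. Because the sort chose cells by CD8, the difference in Cd8a itself is a check of the labels and not a result.

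Of 6159 probe sets tested, 80 were called at an adjusted p under 0.05, which is 1.3% of those tested. Of these, 40 were higher and 40 lower in CD8+ cells, 0.649% in each direction, and they covered 73 named genes. The unadjusted p was under 0.05 for 647 probe sets. In none of the 80 did the arrays of the subsets overlap, as was true of 46.0% of all probe sets tested. The calls lay at different depths of signal. Of the 80, 38 were above the floor on all 4 arrays (13 higher, 25 lower), and 31 had the dimmer subset below the floor on both arrays (20 higher, 11 lower). For those 31 the size is given as a bound, "at least N-fold", wherever it exceeds 1. For 6 probe sets both dim arrays had values below 0, which can inflate a log2 difference.

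Most calls rested on all 4 arrays. The count was 10 without CD8+ replicate 1, 5 without CD8+ replicate 2, 31 without DN replicate 1 and 34 without DN replicate 2, where a single array stood for its subset and was assumed to vary like the other groups. Of the 80 calls, 10, 3, 24 and 25 were among them, in that order. Leaving out an array of another group gave 50 without either fresh CD4+ array, 55 without either fresh DN array, 82 and 81 without fresh CD8+ replicate 1 or 2, and 162 and 152 without cultured CD4+ replicate 1 or 2. Gusb, Cd81 and Cd8a were called in all 12 fits that each left out 1 array. A fit of the 4 arrays alone called 30 probe sets (21 higher, 9 lower), a fit of the 6 cultured arrays called 4, and a fit without the 3 arrays of high Gapdh ratio in the series, DN replicate 1 among them, called 210.

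**Figure D1:**
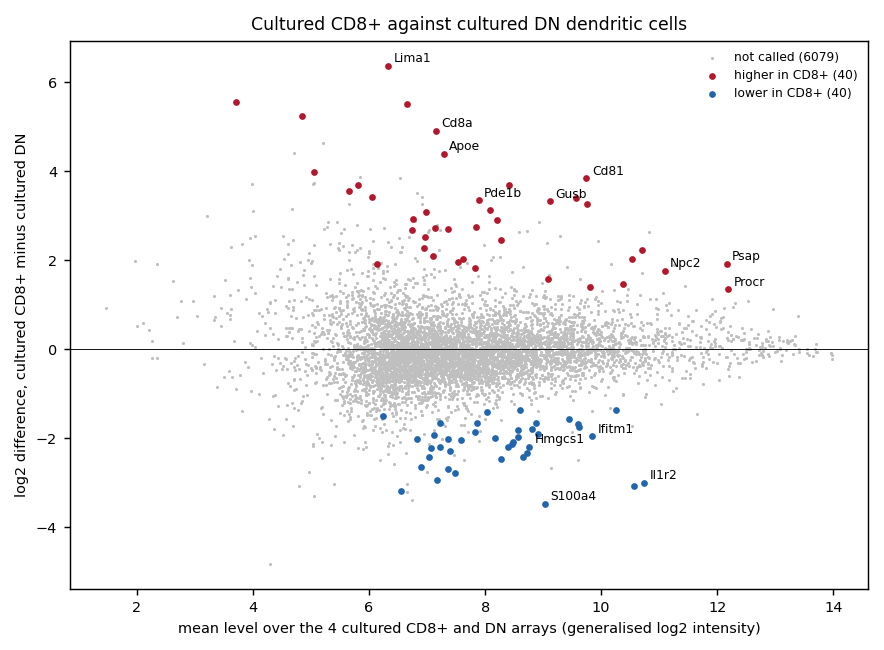
Each point is 1 of the 6159 probe sets tested, with its mean generalised log2 intensity over the 2 cultured CD8+ and 2 cultured DN arrays on the x axis and its log2 difference, CD8+ minus DN, on the y axis. Red points (40) are called higher and blue points (40) called lower in CD8+ cells. Calls occur over most of the range of levels, and S100a4 has the lowest difference of the calls (log2 -3.47).

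Among surface genes known from the CD8+ subset, Cadm1 was called higher in addition to Cd8a, a gene of the sort. Cadm1, a cell adhesion protein that binds Crtam on activated T cells, had 1839.1 and 3290.0 in CD8+ and 212.7 and 255.5 in DN cells on its brightest probe set. The lower CD8+ array was well above the higher DN array, and the difference was 3.39 ± 0.45 on the log2 scale (adjusted p = 0.00536, and 0.0804 without CD8+ replicate 2). The 2 other Cadm1 probe sets were called as well (875.1 and 1709.2 against 90.1 and 89.0, and 181.8 and 392.7 against 29.9 and 30.2). Probe sets of the kind of the former pair can take signal from related transcripts. Ly75, the endocytic receptor DEC-205, had 1859.0 and 1220.0 in CD8+ and 476.2 and 137.7 in DN cells, but the difference of 2.54 ± 0.54 missed the threshold (adjusted p = 0.0509). Xcr1, through which these cells sense the chemokine XCL1, had 252.8 and 207.5 against 62.9 and 53.4 (adjusted p = 0.0787), and Cd24a, a surface sialoglycoprotein, had 1367.1 and 1458.1 against 559.9 and 742.6 (adjusted p = 0.0946). These 3 genes thus stood outside the calls.

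Over the list of 20 CD8+ dendritic cell genes, chosen with earlier results of these data known, 13 were measured and 11 tested. Of the 11, 2 were higher (Cd8a and Cadm1), 0 were lower and 9 had a positive difference. Cd8a is a gene of the sort, so its part in these counts is a check of the labels and not a result. Cadm1 was the only other call. The median log2 difference of the list was 1.17, against -0.08 over all 4735 genes tested (1.48% of genes called, 0.718% higher and 0.76% lower). The median was 1.72 without DN replicate 1, and the count was 1 without CD8+ replicate 2 and 3 without DN replicate 1. Not every gene of the subset stood apart. Itgae, which encodes CD103, had 40.7 and 87.7 in CD8+ and 5.4 and -4.0 in DN cells, below the floor on all 4 arrays. Transcription factor genes of the subset were not called. Irf8 had 1907.6 and 1098.4 against 1048.5 and 394.0 (adjusted p = 0.602), Batf3 had 692.2 and 443.4 against 311.6 and 305.2 (adjusted p = 0.422), and Id2 had 7046.1 and 6883.6 against 5451.1 and 6200.0 (adjusted p = 0.845).

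Among the calls were 8 higher genes that act in lysosomes or are known from phagocytes, gathered by role after they had been called. Gusb, the lysosomal beta-glucuronidase, had the smallest p of the comparison. It had 1721.9 and 1793.0 in CD8+ and 153.0 and 195.3 in DN cells, with close replicates in both subsets. The difference was 3.32 ± 0.25 on the log2 scale, or 9.99-fold (adjusted p = 0.000272), and its adjusted p reached 0.0142 at most when 1 array was left out. Psap, the precursor of the saposins that help lysosomal enzymes to break down sphingolipids, had 8663.1 and 9141.0 against 2281.4 and 2429.9 (1.92 ± 0.30, adjusted p = 0.0131). Neither subset's replicates differed much, and the call was lost when any 1 of the 4 arrays was left out (adjusted p = 0.0701 to 0.111). Its other 2 tested probe sets were not called (adjusted p = 0.105 and 0.612, both positive). Npc2, which hands cholesterol out of the lysosome, had 3573.1 and 4529.1 against 1294.1 and 1092.1 (1.76 ± 0.32, adjusted p = 0.0234).

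Slc11a1, a metal transporter of the phagosome membrane, had 661.4 and 986.0 in CD8+ cells and 74.8 and 99.4 in DN cells (3.13 ± 0.38, adjusted p = 0.00349). DN cells thus had about background signal. Mpeg1, the gene of perforin-2, which makes pores in engulfed bacteria, had 3119.2 and 4165.8 against 818.7 and 728.4 (2.22 ± 0.39, adjusted p = 0.0219), and Laptm4b, a lysosomal membrane protein, had 727.7 and 882.0 against 124.9 and 84.3 (2.90 ± 0.42, adjusted p = 0.00899). Aif1, an actin-binding protein of macrophages, had 165.6 and 234.9 against -20.1 and -15.8 and was at least 2.07-fold higher (adjusted p = 0.0199). Apoe, a lipid carrier that macrophages secrete, had 672.0 and 755.7 against -49.5 and 125.5 (adjusted p = 0.0342). Its DN arrays lay far apart, and cultured CD4+ cells, also CD8-negative, had 681.4 and 633.9. Of these 8 genes, 2 and 1 were called without CD8+ replicate 1 or 2, and 4 and 3 without DN replicate 1 or 2.

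Most of the lysosome list was not called. Of 32 lysosomal hydrolases and related genes, 26 were measured and 25 tested. Of the 25, 3 were higher (Gusb, Psap and Npc2) and 0 lower, beside 0.718% and 0.76% of all genes tested. The list median was 0.07 (0.06 to 0.35 with 1 of the 4 arrays left out). Without any 1 of the 4 arrays, 1 of the 25 was called. Fuca1, the lysosomal fucosidase, had 482.6 and 811.1 in CD8+ and 136.2 and 156.5 in DN cells (adjusted p = 0.0764). Of the 25 tested, 12 had a negative difference.

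Macrophage markers are given beside this group. Of 24 such markers, 20 were measured and 15 tested. Where 0.718% of all genes tested were called higher and 0.76% lower, 1 of the 15 (Apoe) was higher and 0 lower. The median was 0.69 (0.36 without CD8+ replicate 2), 11 of the 15 were positive, and at an unadjusted p under 0.05 there were 6 higher and 2 lower. Their summed intensity was 8607 to 13474 on the CD8+ arrays and 4027 to 4718 on the DN arrays. Hmox1, heme oxygenase, had 3053.4 and 7278.6 against 877.6 and 1869.5 (adjusted p = 0.169), and Cd14, a co-receptor for lipopolysaccharide, had 2225.7 and 2238.4 against 884.7 and 394.8 (adjusted p = 0.181), so these genes made up much of the sums. C1qa, a chain of complement C1q, had 106.1 and 100.6 against -21.0 and 24.6 (adjusted p = 0.164). Group means in CD8+ and DN cells were 103.6 and 17.5 for Vcam1, an adhesion molecule, 371.1 and 209.9 for Lyz2, lysozyme, and 537.6 and 261.3 for Spic, a transcription factor of red pulp macrophages, none of them called. Adgre1, which encodes the macrophage marker F4/80, had -5.7 and -31.3 in CD8+ and 40.4 and 85.9 in DN cells. It was below the floor on all 4 arrays, and the means of Ccr2 and C1qc were below the floor in both subsets. Csf1r, the receptor for macrophage colony-stimulating factor, had means of 151.5 in CD8+ and 274.0 in DN cells and was not called. Lyz2, Spic, Adgre1, Ccr2, C1qc and Csf1r were named after their values were seen. Whether macrophages took part in the higher lysosomal transcripts was not tested. In these sorted bulk samples, fewer cells of a type and less RNA per cell cannot be told apart.

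Among surface and secreted proteins, Cd81 had the largest difference of those above the floor on all 4 arrays. Cd81, a tetraspanin that organises membrane complexes, had 3213.8 and 3281.5 in CD8+ and 278.0 and 180.6 in DN cells. The CD8+ replicates were close, and the difference was 3.84 ± 0.40, or 14.3-fold (adjusted p = 0.00265, at most 0.0383 with 1 array left out). Cxcl9, a chemokine that draws Cxcr3-bearing T cells, had 2671.1 and 2695.6 against 497.1 and 152.4 (3.27 ± 0.45, adjusted p = 0.00666). Procr, the endothelial protein C receptor, was bright in both subsets, with 7415.0 and 7439.3 against 3362.5 and 2548.3, and differed by 1.34 ± 0.24 (adjusted p = 0.0233). In fresh cells the same probe set had 371.6 and 423.6 in CD8+ and 216.9 and 185.1 in DN cells.

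Cd1d1, which presents lipid antigens to natural killer T cells, had 453.5 and 286.5 in CD8+ and 120.1 and 63.1 in DN cells (1.95 ± 0.37, adjusted p = 0.0291). Lsr, a lipoprotein receptor, was at least 3.80-fold higher on its probe set with 324.6 and 413.2 against 55.1 and 12.6 (adjusted p = 0.00899), and its other probe set was called too. Acvrl1, a receptor of the TGF-beta family, was at least 3.08-fold higher (209.4 and 417.3 against 31.8 and 52.7, adjusted p = 0.0234), but its 2 other tested probe sets were not called (adjusted p = 0.100 and 0.678). Of the 7 calls in this group, 1 held without either CD8+ array, and 4 and 3 without DN replicate 1 or 2. Cd1d1 was the only call among 14 tested genes of MHC class I presentation, where 0.718% of all genes tested were called higher. The median of the 14 was 0.61, and 12 of 14 were positive, as were 2077 of all 4735 genes tested. Psmb9, an immunoproteasome subunit, had 2371.7 and 2622.4 against 1166.8 and 986.9 (adjusted p = 0.205), and Pdia3, a chaperone of the peptide-loading complex, had 1072.4 and 1302.7 against 537.8 and 562.9 (adjusted p = 0.0792).

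**Figure D2:**
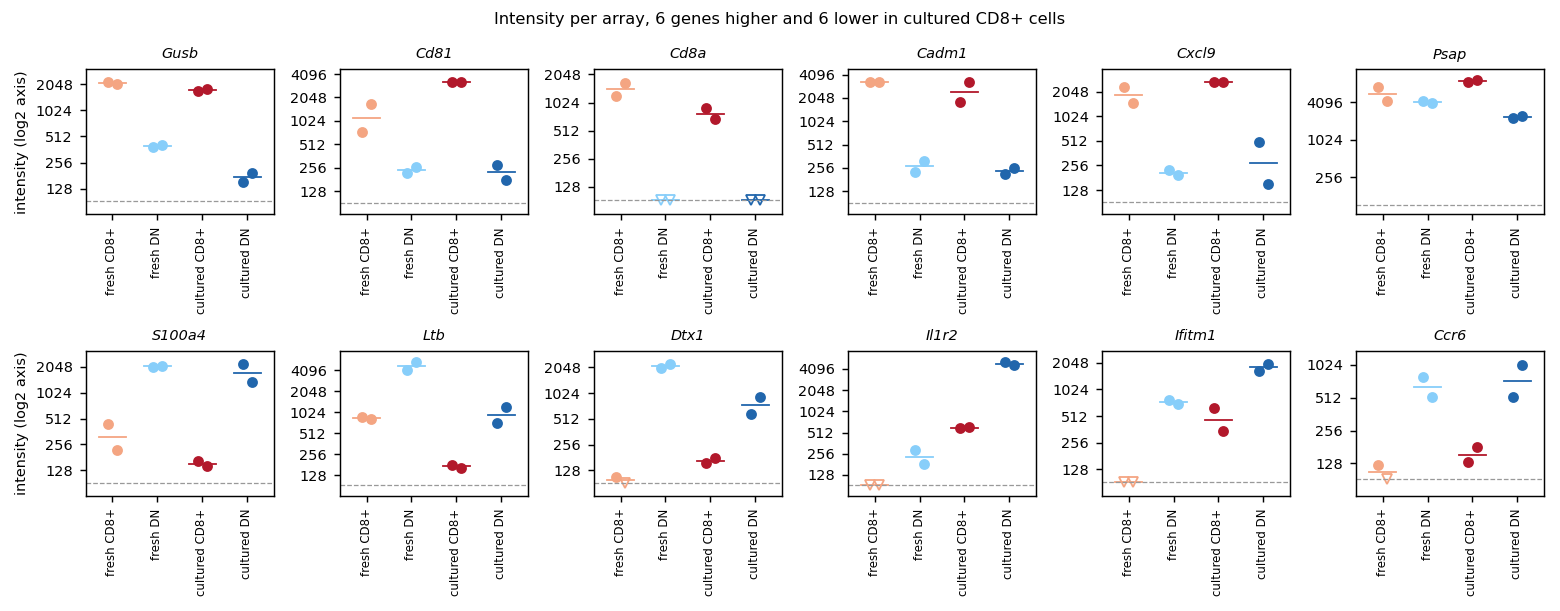
Each panel plots the intensity of 1 gene (log2 axis) on every fresh and cultured CD8+ and DN array, with a line at the group mean of the log values, the dashed line at the floor of 91.37 and open triangles for values below it, drawn at the floor. Gusb, Cd81, Cd8a, Cadm1, Cxcl9 and Psap are higher, and S100a4, Ltb, Dtx1, Il1r2, Ifitm1 and Ccr6 lower, in cultured CD8+ than in cultured DN cells. The cultured subsets do not overlap for these genes, as for 46.0% of all probe sets tested. Psap is called after culture and is not called between fresh CD8+ and fresh DN cells (limma, adjusted p = 0.781). Its fresh CD8+ replicates lie apart, and both are above the fresh DN values.

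Genes of cyclic nucleotide signalling were called on both sides. Pde1b, a phosphodiesterase that breaks down cyclic nucleotides, had 724.3 and 783.5 in CD8+ and 90.0 and 48.8 in DN cells, at least 7.79-fold higher (adjusted p = 0.00383). Pkib, an inhibitor of protein kinase A, had 1471.4 and 1439.1 against 624.7 and 483.1 (1.40 ± 0.26, adjusted p = 0.0281). Prkacb, a catalytic subunit of that kinase, was the lower one, with 107.7 and 122.6 against 538.5 and 349.8 (-1.87 ± 0.29, adjusted p = 0.0114). Each of the 3 had close CD8+ replicates. Without CD8+ replicate 1 or 2, in that order, the adjusted p was 0.0563 and 0.0634 for Pde1b, 0.196 and 0.171 for Pkib, and 0.123 and 0.0811 for Prkacb. Without DN replicate 1 it was 0.0766 for Pkib and 0.0784 for Prkacb, and without DN replicate 2 it was 0.189 for Pkib. This grouping was made after the values were seen.

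Other higher transcripts of signalling and the cytoskeleton were Lima1, an actin-bundling protein, and the kinase genes Nek6 and Uhmk1. Lima1 had 610.1 and 872.1 in CD8+ and -82.9 and -26.0 in DN cells and was at least 7.55-fold higher (adjusted p = 0.00349). Nek6 had 358.3 and 504.7 against 140.8 and 96.0 (1.82 ± 0.37, adjusted p = 0.0389). Uhmk1 was only at least 1.36-fold higher (81.5 and 196.6 against -88.0 and -29.3, adjusted p = 0.0178), and its brighter probe set had the opposite sign (-0.32, adjusted p = 0.813). The Uhmk1 call thus did not extend to its brighter probe set. Of the 5 higher calls in signalling and the cytoskeleton, Pde1b and Pkib included, 0 held without either CD8+ array, and 2 and 3 without DN replicate 1 or 2.

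Further calls were of genes that handle lipids, gathered by role after they had been called. Higher were Plin2, the coat protein of lipid droplets (410.6 and 317.8 against 69.3 and 26.4, at least 3.75-fold, adjusted p = 0.0281), and Slc25a20, which carries acylcarnitines into mitochondria (1959.8 and 2520.8 against 854.6 and 753.1, log2 1.47 ± 0.31, adjusted p = 0.0435). Plpp1, a lipid phosphate phosphatase, was at least 2.24-fold higher, and Pafah1b3, a subunit of an acetylhydrolase of platelet-activating factor, at least 2.82-fold. Pi4k2a, a phosphatidylinositol 4-kinase, had 1083.2 and 810.5 against 327.3 and 301.9 (adjusted p = 0.0328). Lower were Dgat1, which completes triglyceride synthesis (155.9 and 229.1 against 746.0 and 749.7, -1.96 ± 0.35, adjusted p = 0.0219), and Fabp5, a fatty acid-binding protein (42.4 and 65.8 against 467.9 and 173.8, at least 2.98-fold, adjusted p = 0.0473). Pcyt1a, which controls phosphatidylcholine synthesis, was lower on 1 probe set (169.1 and 171.0 against 717.8 and 761.4, adjusted p = 0.0389) and not on its dimmer one (adjusted p = 0.862).

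Consecutive enzymes of ganglioside synthesis went in opposite directions. St3gal5, which makes the ganglioside GM3, had 411.4 and 378.6 in CD8+ and 68.5 and 119.6 in DN cells (2.03 ± 0.37, adjusted p = 0.0235). B4galnt1, which acts on GM3 next, had 173.0 and 228.3 against 638.6 and 786.4 (-1.82 ± 0.31, adjusted p = 0.0215). Neither gene overlapped between the subsets, as was true of all 80 calls and of 46.0% of all probe sets tested. The 6 higher lipid genes gave 0 calls without CD8+ replicate 1, CD8+ replicate 2 or DN replicate 1, and 1 without DN replicate 2. The 4 lower ones gave 0, 0, 0 and 1, in the same order.

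Further enzymes were higher in CD8+ cells. Pdia5, a protein disulfide isomerase, had 522.0 and 664.6 against 121.7 and 53.9 (2.74 ± 0.41, adjusted p = 0.00945). Nudt9, an ADP-ribose hydrolase, had 3661.9 and 2416.3 against 842.1 and 639.6 (2.02 ± 0.35, adjusted p = 0.0216). Gatm, which makes the precursor of creatine, was at least 2.93-fold higher (240.5 and 330.7 against 81.4 and 40.7, adjusted p = 0.0389). Dhodh, an enzyme of pyrimidine synthesis, and Cuta rested on DN values near or below 0, with bounds of at least 1.78-fold and 1.82-fold. For Cuta the DN arrays had -242.1 and -41.8, while fresh CD8+ and fresh DN cells had 329.4 to 496.2 and 292.2 to 330.1. Of these 5 calls, 0 held without either CD8+ array and 2 without either DN array.

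Among nuclear factors, Mxd1, which competes with MYC for MAX, was at least 4.33-fold higher (379.5 and 458.8 against 87.0 and 32.5, adjusted p = 0.0328). Mycl, a MYC family gene of dendritic cells, was at least 1.41-fold higher, with 166.3 and 105.8 against 39.2 and 6.8 (adjusted p = 0.0469). Bcl2l11, the death-promoting BH3 protein Bim, was called on a dimmer probe set (760.3 and 685.3 against 182.9 and 87.4, adjusted p = 0.0396). Its brightest probe set had 5128.8 and 4075.2 against 2190.6 and 1325.5 and was not called (1.42 ± 0.33, adjusted p = 0.0771). Hnrnph3, an RNA-binding protein gene, was called with 107.9 and 64.2 against -292.6 and -251.3, where no bound above 1 can be given. With an unnamed probe set these made 5 calls, of which 0 held without any 1 of the 4 arrays.

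The lower transcripts held genes of CD8-negative dendritic cells. S100a4, a calcium-binding protein of motile cells, had 164.2 and 142.1 in CD8+ and 2230.7 and 1347.2 in DN cells. The DN arrays were far above both CD8+ arrays, and the difference was -3.47 ± 0.39 (adjusted p = 0.00349, and 0.0530 without CD8+ replicate 2). Its relative S100a6 had 507.3 and 356.5 against 1596.6 and 1294.7 (-1.75 ± 0.27, adjusted p = 0.0114). Ltb, which encodes lymphotoxin beta, a signal that shapes lymphoid tissue, had 178.1 and 164.2 against 717.7 and 1207.7 (-2.42 ± 0.29, adjusted p = 0.00349). Dtx1, a target and regulator of Notch, had 154.5 and 177.5 against 592.4 and 931.0 (-2.14 ± 0.28, adjusted p = 0.00463). Dtx1 was the only call among 13 tested Notch pathway genes, where 0.76% of all genes tested were called lower.

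Klf4, a transcription factor of myeloid cells, had 66.4 and 117.7 in CD8+ and 311.1 and 485.2 in DN cells (-2.04 ± 0.34, adjusted p = 0.0178). Ccr6, the receptor for CCL20, had 132.4 and 179.6 against 514.6 and 1016.6 (-2.20 ± 0.42, adjusted p = 0.0291), the only call among 8 tested chemokine receptors. Plxnd1, a semaphorin receptor, was at least 2.74-fold lower (86.2 and 69.1 against 230.8 and 300.1, adjusted p = 0.0306). These 6 genes were the calls among 18 tested members, all measured, of the list of 21 CD8-negative dendritic cell genes, with 0 higher and a median of -1.44. Over all genes tested, 0.76% were called lower. The list was chosen with earlier results of these data known, so the count is no independent support for the labels. Of the 6, 2 and 0 were called without CD8+ replicate 1 or 2, and 5 and 3 without DN replicate 1 or 2.

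Further members of that list had large differences and spread. Sirpa, an inhibitory receptor of CD8-negative dendritic cells, had 18.4 and 64.4 in CD8+ and 341.1 and 318.8 in DN cells (at least 3.42-fold, adjusted p = 0.0950). Cd7, better known from T and natural killer cells, had 195.7 and 246.2 against 1430.8 and 1386.6 (-2.67 ± 0.68, adjusted p = 0.106). Irf4 had 742.0 and 138.7 against 2694.5 and 1250.6 (-2.50 ± 0.69, adjusted p = 0.141). None of the 3 passed the test. Relb, an NF-kB subunit, had 1315.8 and 1305.2 against 1700.5 and 1942.1 (-0.47 ± 0.23, adjusted p = 0.539), and Itgam, which encodes CD11b, was below the floor on all 4 arrays.

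Il1r2 encodes the decoy receptor that binds interleukin 1 without signalling. It had 589.3 and 611.3 in CD8+ and 5048.3 and 4642.5 in DN cells on the probe set that can take signal from related transcripts, and 499.3 and 543.0 against 5528.6 and 3492.2 on the other. The differences were -3.01 ± 0.42 (adjusted p = 0.00666) and -3.07 ± 0.39 (adjusted p = 0.00383). In fresh cells the first had 71.3 and 9.7 in CD8+ and 287.5 and 182.4 in DN cells. Il1r2 was thus brighter in each cultured subset than in the same fresh subset. Without CD8+ replicate 1 or 2 the adjusted p was 0.0730 and 0.0762 on the former and 0.0582 and 0.0530 on the latter, and 0.0564 on the former without DN replicate 1.

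The Ifitm genes encode membrane proteins that hinder the entry of viruses. Ifitm1 had 631.9 and 344.2 in CD8+ and 1661.0 and 1993.0 in DN cells (-1.96 ± 0.33, adjusted p = 0.0180). Ifitm6 was at least 4.32-fold lower, with 58.0 and 55.9 against 426.4 and 407.1 (adjusted p = 0.00383). Ifitm1 was the only call among 20 tested interferon-induced genes (0.76% of all genes tested were called lower), and Ifitm6 was on no list. The DN arrays differed widely on that list, with summed intensities of 8390 and 23036, and its median of 0.44 was 1.45 without DN replicate 1 (2 higher, 0 lower) and -0.84 without DN replicate 2. It had 8 higher and 1 lower without the arrays of high Gapdh ratio, and 0 called without CD8+ replicate 2. Matrix metalloelastase, Mmp12, was lower on both of its probe sets (141.3 and 242.3 against 758.0 and 1178.9, adjusted p = 0.0219, and 39.5 and 43.7 against 272.5 and 580.8, adjusted p = 0.0303). Cultured CD4+ cells had still more on the former, 2349.7 and 3447.8.

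Klrd1, the CD94 chain of natural killer cell receptors, had 113.4 and 141.7 in CD8+ and 516.6 and 1023.4 in DN cells (-2.48 ± 0.45, adjusted p = 0.0235). It was the only call among 5 tested markers of natural killer cells, where 0.76% of all genes tested were called lower. The summed intensity of the 5 was 3273 to 6511 on the CD8+ and 4952 to 9111 on the DN arrays. Most of that sum was Ccl5, which is not specific to these cells. Lta4h, an enzyme of leukotriene B4 synthesis, had 377.0 and 497.2 against 1271.5 and 1525.7 (-1.68 ± 0.28, adjusted p = 0.0180). Sema4d, a semaphorin of lymphoid cells, had 804.5 and 725.4 against 1831.6 and 2129.4 (-1.37 ± 0.27, adjusted p = 0.0372). Also lower were Ms4a4d, a membrane-spanning protein (at least 3.13-fold), Ddr1, a collagen receptor (at least 1.32-fold), and Ctnnd2, a delta-catenin (-2.20 ± 0.35). Of the 12 lower calls for surface and secreted proteins, from Il1r2 to Ctnnd2, 2 and 0 held without CD8+ replicate 1 or 2, and 3 without either DN array.

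Lower signalling genes were led by protein kinase C beta. Prkcb had 428.2 and 380.2 in CD8+ and 1117.6 and 1306.3 in DN cells (-1.58 ± 0.25, adjusted p = 0.0154), and its dimmer probe set missed the threshold (-1.41, adjusted p = 0.124). Stat4, which carries interleukin 12 and interferon signals, had 229.8 and 262.2 against 1140.4 and 760.1 (-1.91 ± 0.39, adjusted p = 0.0389). Macf1, which links actin and microtubules, had 54.3 and 102.4 against 332.8 and 324.7 (adjusted p = 0.0151), and Mycbp2, a ubiquitin ligase, had 179.8 and 313.2 against 748.4 and 920.8 (adjusted p = 0.0219). Together with Prkacb and S100a6 these made 6 calls, of which 0 held without CD8+ replicate 1, CD8+ replicate 2 or DN replicate 1, and 2 without DN replicate 2.

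The other lower calls were of mixed function. Dnmt3a, a DNA methyltransferase, was at least 2.93-fold lower (5.8 and 23.2 against 189.1 and 416.9, adjusted p = 0.0215). Med11, a Mediator subunit, was at least 2.37-fold lower, and Hnrnpdl, an RNA-binding protein gene, was lower by -1.41 ± 0.29 (adjusted p = 0.0435) on 1 of 2 probe sets (adjusted p = 0.398 on the brighter). Ank, a pyrophosphate transporter, had 118.1 and 166.6 against 507.9 and 653.3 (adjusted p = 0.0216). Myadm had 218.5 and 263.8 against 582.4 and 663.8 (adjusted p = 0.0291). Car2, carbonic anhydrase 2, had 93.5 and 49.9 against 565.1 and 239.9 (adjusted p = 0.0406), and 0.329 without DN replicate 1. It was the only call among 5 tested red cell markers (0.76% of all genes tested were called lower), of which Hba-a1 had a difference of 0.13. With an unnamed probe set these were 7 calls, of which 0 held without either CD8+ array and 1 without either DN array.

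Enzymes of cholesterol synthesis were lower in CD8+ cells. Cholesterol synthesis runs from acetyl-CoA through mevalonate and squalene to the sterols, and its genes are switched on together by SREBP2 when the cell's sterol is low. Hmgcs1, which makes HMG-CoA, and Idi1, Fdft1, Sqle and Msmo1, which act after mevalonate, were the 5 called of 8 tested genes of the list, which held 19, of which 14 were measured. All 5 were lower, the median over the 8 was -1.88, and all 8 had a negative difference. Over all 4735 genes tested, 0.76% were called lower and 2658 had a negative difference. This list, like the others, was chosen with earlier results of these data known. The start-site regions of 3 of the 5 are shown because genes that move together can be set against the shared motifs of this pathway. For Sqle and Fdft1 no such region was available. The regions shown were therefore set by availability. They are 300 bases from RefSeq (build GRCm38.p6), 250 before and 50 after the start of the gene, at chr13:119690101-119690400 on the plus strand for Hmgcs1, chr13:8885356-8885655 on the plus strand for Idi1 and chr8:64733529-64733828 on the minus strand for Msmo1. Capitals mark matches, on either strand, to the core of a sterol regulatory element (TCACNCCAC) or to the CCAAT box.
Hmgcs1: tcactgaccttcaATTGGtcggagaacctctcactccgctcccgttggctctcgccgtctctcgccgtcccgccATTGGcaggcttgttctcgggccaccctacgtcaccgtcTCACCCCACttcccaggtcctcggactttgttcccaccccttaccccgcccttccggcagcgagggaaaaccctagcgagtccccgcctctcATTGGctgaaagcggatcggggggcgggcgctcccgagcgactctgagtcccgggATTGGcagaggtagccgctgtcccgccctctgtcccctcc
Idi1: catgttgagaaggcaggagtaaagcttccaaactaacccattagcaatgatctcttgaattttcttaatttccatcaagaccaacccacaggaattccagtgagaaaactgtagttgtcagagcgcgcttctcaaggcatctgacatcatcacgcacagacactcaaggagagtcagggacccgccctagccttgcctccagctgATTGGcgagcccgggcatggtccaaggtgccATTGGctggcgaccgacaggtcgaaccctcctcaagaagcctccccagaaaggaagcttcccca
Msmo1: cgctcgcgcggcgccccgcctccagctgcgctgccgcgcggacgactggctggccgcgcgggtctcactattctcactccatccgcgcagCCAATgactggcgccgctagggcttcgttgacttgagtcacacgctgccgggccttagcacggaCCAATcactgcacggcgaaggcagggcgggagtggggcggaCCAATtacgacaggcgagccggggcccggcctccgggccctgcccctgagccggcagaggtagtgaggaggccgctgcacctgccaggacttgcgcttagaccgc
The sterol element core occurred 1 time in the Hmgcs1 window and 0 times in those of Idi1 and Msmo1. CCAAT occurred 4, 2 and 3 times in Hmgcs1, Idi1 and Msmo1, and no match overlapped another. Among 32851 promoters of the table, 1.24% held TCACNCCAC and 37.4% held CCAAT, so the latter is common. Cyp51 and Mvk, tested genes of the list that were not called, held CCAAT 1 and 5 times and TCACNCCAC 0 times. A match describes these letters only.

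Hmgcs1 had 236.4 and 168.6 in CD8+ and 945.7 and 899.6 in DN cells, a difference of -2.19 ± 0.38 (adjusted p = 0.0216). Idi1, the isopentenyl diphosphate isomerase, had 64.6 and 57.7 against 590.4 and 371.8 and was at least 4.85-fold lower (adjusted p = 0.0235). Fdft1, squalene synthase, had 70.9 and 56.2 against 241.1 and 299.2 and was at least 2.80-fold lower (adjusted p = 0.0454). Both CD8+ arrays were below the floor for Idi1 and Fdft1, and also for Msmo1. Sqle, squalene epoxidase, had 131.9 and 123.2 against 393.8 and 435.3 (-1.66 ± 0.30, adjusted p = 0.0235), and Msmo1, a sterol methyl oxidase, had 24.4 and 50.7 against 259.4 and 334.6 (at least 3.06-fold, adjusted p = 0.0291). The 3 other tested genes, named after their values were seen, were Cyp51 (14.9 and 45.4 against 147.6 and 138.4, adjusted p = 0.102), Fdps (155.8 and 136.9 against 438.4 and 260.4, adjusted p = 0.548) and Mvk (85.6 and 106.2 against 199.3 and 114.8, adjusted p = 0.815). The groups did not overlap for any of the 8, as for 46.0% of all probe sets tested. The count of 5 was 0 without any 1 of the 4 arrays, 3 with a hard floor, 2 when only the 4 arrays were fitted, 0 when the 6 cultured arrays were fitted, and 2 without either fresh CD4+ array, while the median stayed between -2.11 and -1.61 in all settings run.

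Before culture Idi1 and Msmo1 were near or below the floor in both subsets, and Sqle and Hmgcs1 were above it. Idi1 had 110.0 and 20.5 in fresh CD8+ and 92.0 and 108.8 in fresh DN cells, and Msmo1 was below the floor on all 4 fresh arrays. Sqle had 105.5 and 114.8 in fresh CD8+ and 171.9 and 147.1 in fresh DN cells, and Hmgcs1 had 105.6 and 207.8 against 321.5 and 226.6. All 5 called genes had the same sign in fresh cells, and none was called between the fresh subsets (limma, adjusted p = 0.529 to 0.997). Cultured CD4+ cells had 416.9 and 659.2 of Hmgcs1, 462.2 and 514.7 of Idi1, 394.0 and 402.5 of Sqle, 166.0 and 497.2 of Msmo1 and 133.0 and 225.3 of Fdft1, each value above both cultured CD8+ values. The test of the cultured minus the fresh difference gave log2 values of -2.31 (Msmo1) to -1.16 (Sqle). In limma the unadjusted p was under 0.05 for all 5, as for 250 of the 6159 probe sets, and the adjusted p was 0.998 for each. A change of the difference with culture was thus not shown.

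**Figure D3:**
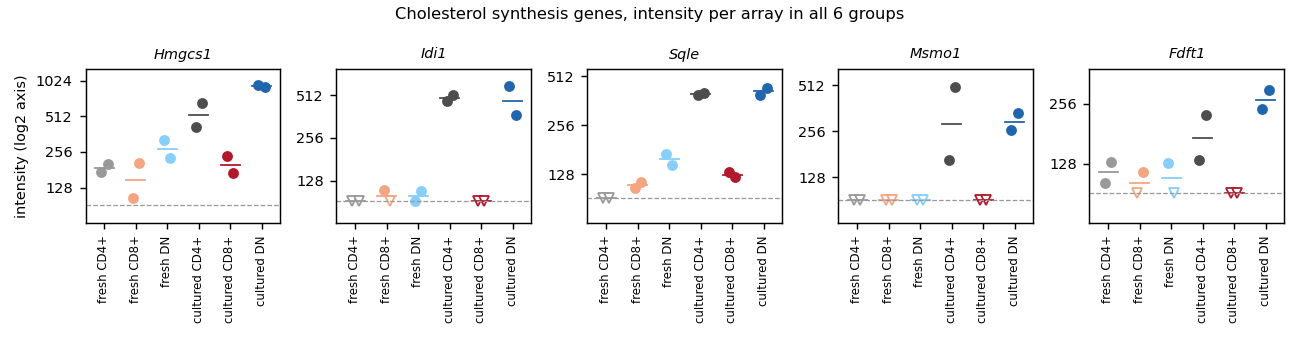
Each panel plots the intensity (log2 axis) of 1 called cholesterol synthesis gene on both arrays of all 6 groups, with a line at the group mean of the log values, the dashed line at the floor of 91.37 and open triangles for values below it, drawn at the floor. Cultured DN and cultured CD4+ arrays lie above cultured CD8+ arrays for all 5 genes. Idi1, Fdft1 and Msmo1 are below the floor on both cultured CD8+ arrays.

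Genes of maturation were above the floor in both cultured subsets on most arrays and gave no call. Of 15 tested genes of costimulation and maturation, 0 were called, where 1.48% of all genes were, so the count is no result about the list. Its median was -0.15, but 0.40 without DN replicate 1, 0.01 without CD8+ replicate 2 and -0.52 without DN replicate 2. Ccl22, a chemokine of mature dendritic cells, had 3323.2 and 1534.9 against 1367.0 and 564.9 (adjusted p = 0.340). Ccr7, which guides dendritic cells to lymph nodes, had 5190.9 and 5073.5 in CD8+ and 4804.2 and 4282.5 in DN cells (0.18 ± 0.31, adjusted p = 0.895). Cd86 had 1023.6 and 1033.5 against 1475.6 and 756.7 (adjusted p = 0.985), and Cd80 had 272.8 and 264.2 against 450.6 and 205.8 (adjusted p = 0.945). Their DN arrays lay on either side of the CD8+ arrays. Cd40 had 4237.3 and 2154.2 against 1548.3 and 551.8 (1.71 ± 0.48, adjusted p = 0.147), and Il12b, the p40 chain of interleukin 12, had 1332.3 and 237.2 against 999.6 and -29.3 (adjusted p = 0.710), with replicate 2 below replicate 1 in both subsets.

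Over all genes tested 1.48% were called, and most other lists were at or near that share. Counts of 0 or 1 in lists this short are no result about them. None of the tested genes was called for MHC class II presentation (20 tested), NF-kB subunits and feedback (16), pattern recognition (8), inhibitory and Fc receptors (17), oxidative phosphorylation (36), glycolysis (11), heat shock (13), cell cycle (31), actin (25) or, on the brightest probe set of each gene, apoptosis (14). Their medians lay between -0.49 (heat shock) and 0.35 (glycolysis), and between -0.46 and 0.52 with 1 of the 4 arrays left out. Leaving out 1 array moved many of them by over 1.5 times: heat shock was -0.15 without CD8+ replicate 2, glycolysis 0.20 without CD8+ replicate 2 and oxidative phosphorylation 0.00 without DN replicate 1. Apoptosis ran from -0.31 (without DN replicate 2) to 0.48 (without DN replicate 1), and NF-kB from -0.17 to 0.13 in the same order. No direction is read from these medians. Tyk2, a Janus kinase, was near the threshold and was not called (adjusted p = 0.0561). Flt3, the receptor for a growth factor of dendritic cells, had 1932.0 and 1857.5 against 1282.6 and 935.8 (adjusted p = 0.338). Single calls came from signalling kinases (20, Prkcb lower), cytokines (13, Ltb lower), chemokine ligands (11, Cxcl9 higher) and immediate-early genes (23, Klf4 lower). Among 26 integrins and adhesion molecules Cd81 and Cadm1 were higher, and among 19 transcription factors of dendritic cells Mycl was higher and Klf4 lower.

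**Figure D4:**
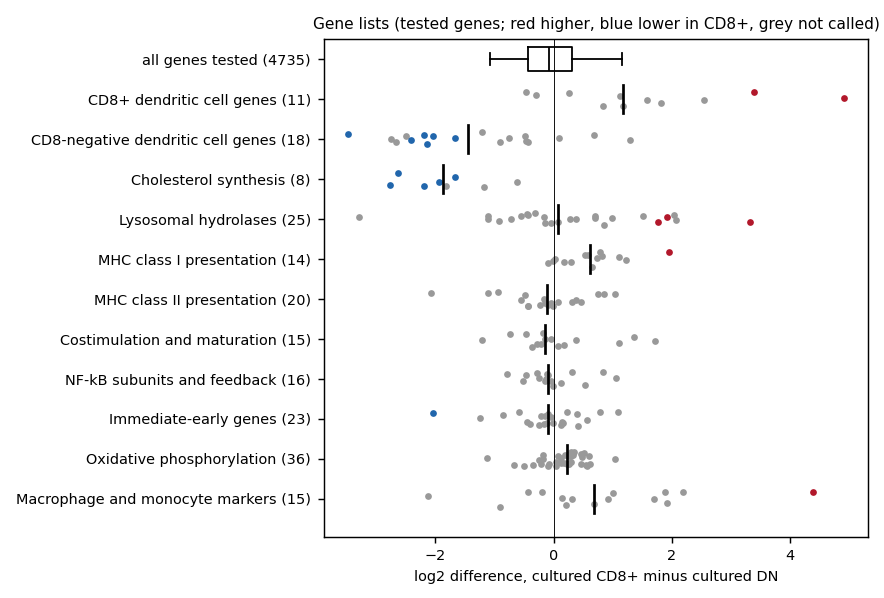
Each point is a tested gene of a list (tested members in brackets), placed by its log2 difference, cultured CD8+ minus cultured DN. Red and blue points are called higher and lower, black ticks are list medians, and the box shows the quartiles of all 4735 genes tested, with whiskers at percentiles 5 and 95. The lists of CD8-negative dendritic cell genes and cholesterol synthesis have medians of -1.44 and -1.88, and those of CD8+ dendritic cell genes and macrophage markers have 1.17 and 0.69. The lists were chosen with earlier results of these data known.

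Markers of other cells gave few calls. The lists had few tested genes and 1.48% of all genes were called, so these counts are no result about other cells. Of 18 T cell markers, 14 were measured and 5 tested, with 0 called. Their summed intensity was 400.2 to 465.2 on the CD8+ and 870.2 to 938.9 on the DN arrays. Il7r, the interleukin 7 receptor, made up much of it, with 105.0 and 116.8 against 405.2 and 579.1 (adjusted p = 0.0787). B cell markers had 11 tested genes with 0 called and sums of 1987 to 4665 against 2024 to 3516. Markers of plasma cells, plasmacytoid dendritic cells, neutrophils, platelets, stromal cells and basophils, with 3 to 5 tested genes each, had 0 called.

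The fresh arrays were other arrays of the same subsets, so that they give the same comparison before culture. Both comparisons came from 1 fit with a shared estimate of the spread, so their calls are not independent. Between fresh CD8+ and fresh DN cells 88 probe sets (1.43%) were called. Of these, 41 were among the 80 cultured calls and had the same direction, which is 51.25% of the cultured and 46.6% of the fresh calls. A label of fresh CD8+ replicate 1 calls its cells CD4 positive while its other labels give CD8+, and its Cd8a was 1210.4 and its Cd4 92.0. The Gapdh ratio of this array was 2.55, the highest of the series, and its actin ratio was 0.908. Of the 80, 77 had the same sign in fresh cells, and the median size was 2.25 in cultured and 1.59 in fresh cells on the log2 scale. The 80 were chosen for being large in the cultured arrays, so the smaller fresh median is partly set by that choice.

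Genes called in both states included Gusb, Cd81, Cadm1, Lima1, Pde1b, Cxcl9, Slc11a1, Mpeg1 and Laptm4b among the higher, and Dtx1, S100a4, S100a6, Ltb, Ccr6, Ifitm1, Ifitm6, Plxnd1, Klrd1 and Mmp12 among the lower. Gusb had 2169.9 and 2060.0 in fresh CD8+ and 384.9 and 403.4 in fresh DN cells. Dtx1 had 108.3 and 90.0 against 2014.2 and 2277.9 in fresh cells, a difference of -4.37 that was larger than the -2.14 of cultured cells. Ltb had 865.9 and 804.1 against 4176.7 and 5275.1, at higher levels than in culture but with a like difference (-2.49 and -2.42). Of the genes described above that were not called after culture, Relb (370.0 and 416.6 against 1401.3 and 1735.0 in fresh cells, -1.99, adjusted p = 0.00276), Xcr1 (3.12, adjusted p = 0.00603), Cd24a (1.65, adjusted p = 0.0148), Itgae (3.30, adjusted p = 0.0156) and Ly75 (2.61, adjusted p = 0.0411) were called in fresh cells.

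Other genes were called after culture and not before. Psap had 7132.0 and 4267.2 in fresh CD8+ and 4258.3 and 3906.6 in fresh DN cells (0.44, adjusted p = 0.781). Klf4 had 908.0 and 662.0 against 1261.5 and 1588.8 (-0.87, adjusted p = 0.401), and Prkacb had 706.2 and 632.1 against 958.7 and 774.4 (-0.37, adjusted p = 0.859). Bcl2l11 on the called probe set and Mxd1 were below the floor on all 4 fresh arrays. The difference between the states was itself tested as an interaction, and limma called 0 of 6159 probe sets (0%), with 250 at an unadjusted p under 0.05 and a smallest adjusted p of 0.426. That value was shared by Dtx1 (2.23, a smaller gap after culture), Cuta (4.87) and Ppt2, a lysosomal thioesterase (-3.99), and Relb had 1.51 (adjusted p = 0.610). Ppt2 had 354.8 and 308.2 in fresh CD8+ and 26.1 and 45.6 in fresh DN cells, and 35.5 to 126.2 on the 4 cultured arrays. A gene called in 1 state only is therefore not shown to differ between the states.

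**Figure D5:**
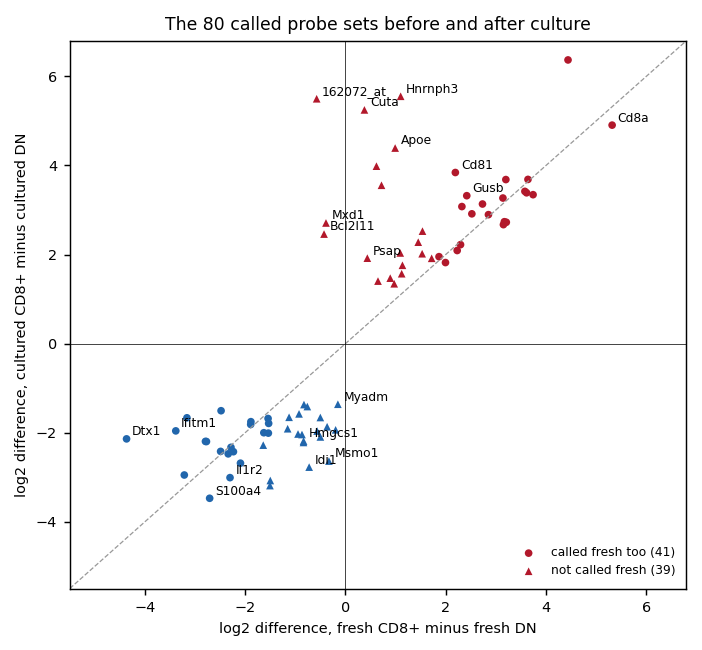
Each point is 1 of the 80 called probe sets, with its log2 difference, CD8+ minus DN, in fresh cells on the x axis and in cultured cells on the y axis, and the dashed line marks equal values. Circles (41) were called in fresh cells too and triangles (39) were not. Of the 80, 77 have the same sign on both axes, Dtx1 lies nearer to 0 after culture, and Hnrnph3, Cuta and Apoe lie near 1 or below on the x axis.

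Cultured CD4+ cells are the other CD8-negative subset, and the comparison with them uses the same CD8+ arrays, so the values are only set side by side. Between cultured CD8+ and cultured CD4+ cells 141 probe sets (2.29%) were called. Gusb had 84.3 and 100.8 in cultured CD4+ cells beside 153.0 and 195.3 in DN cells. Cxcl9 had 70.2 and 69.6 beside 497.1 and 152.4 in DN cells, and S100a4 had 1709.0 and 2277.5 beside 2230.7 and 1347.2. Il1r2 had 6956.0 and 6613.5 in CD4+ cells on its brightest probe set. Ifitm1 was lower in CD8+ cells against DN cells and was not called against CD4+ cells (1099.3 and 1174.5, -1.28, adjusted p = 0.0784), and neither was Apoe (0.12, adjusted p = 0.965). Whether DN and CD4+ cells differ in these genes was not tested here.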

How the data were processed

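Gene expression was measured in 12 samples with 1-colour oligonucleotide arrays. The deposited values are average difference intensities on a linear scale that the authors scaled globally, per the labels, and they can fall below 0. Software was not given in the sources used here. Of 12488 probe sets, 66 controls were left out. The platform annotation gave 10833 probe sets 1 gene symbol, 396 several and 1193 none, and 10817 matched RefSeq by Entrez ID with 0 symbols changed.

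A generalised logarithm was used, the log2 of (x + sqrt(x² + c²))/2 for an intensity x, with c = 45.69, the median over the arrays of the noise among values below 0. The floor is 2 times c, 91.37. On this scale a difference between low values above 0 is smaller than the log2 of their ratio. Tests covered the 6159 probe sets (4735 genes) that exceeded the floor on 2 or more of the 12 arrays. Differences and standard errors came from 1 fit of all 6 groups in limma 3.58.1 (R 4.3.3), with trended, robust moderation and Benjamini-Hochberg adjustment over all probe sets tested. The fit had 6 residual degrees of freedom. A probe set was called at an adjusted p under 0.05. The interaction of subset and culture was a contrast of the same fit. The fit was tested on simulated data.

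A gene on a list was represented by its brightest probe set. "At least N-fold" sets the mean of the brighter subset against the floor, or the dimmer value where higher, wherever the dimmer subset was below the floor on both arrays. The text names all called genes and draws other names from up to 4 genes of lowest p on each list, from markers of the sort and from the 6 lowest interaction p-values in each direction, without describing all of these. Names from elsewhere are marked. The members, the lists and the grouping of calls by role were chosen with earlier results of these data known. Alternatives changed the offset, floor, filter, normalization, arrays in the fit, variance model, array weights, replicate block and arrays left out.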

Additional observations from a re-analysis of the deposited data

How the results depend on the processing

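The count of 80 probe sets called between cultured CD8+ and cultured DN cells was 30 (21 higher, 9 lower) with only the 4 arrays in the fit, 4 (2 higher, 2 lower) with the 6 cultured arrays, 182 (101 higher, 81 lower) with array weights and 210 (128 higher, 82 lower) without the 3 arrays of high Gapdh ratio. Without the filter on dim probe sets, 26 were lower. With 1 of the 12 arrays left out, the count ranged from 5 to 162, from 3 to 94 among the higher and from 2 to 68 among the lower. For fresh CD8+ against fresh DN cells, 88 became 134 with a hard floor, 155 without the arrays of high Gapdh ratio and 8 to 123 with 1 array left out. For cultured CD8+ against CD4+ cells, 141 became 20 with only the groups compared, 30 with the 6 cultured arrays, 30 with array weights, 317 without the arrays of high Gapdh ratio and 28 to 551 with 1 array left out. The interaction went from 0 to 1 without trended and robust moderation, 1 without the arrays of high Gapdh ratio and 0 to 3 with 1 array left out, and it could not be fitted within 1 state. The fits differed in the number of samples, and the cause of the moves was not tested. Over the named genes and settings, 2175 values kept direction and side of the threshold, 611 lost the call, 89 gained it, 6 changed sign and 3 became 0. These 9 were not called: Cd4 (-0.15) and Il12b (-0.82) without cultured DN replicate 2, Cd86 (0.44) and Cd80 (0.38) without cultured DN replicate 1, with the same values when all arrays of high Gapdh ratio were left out, and Itgae, Itgam and Adgre1 (0.00, at the floor) with a hard floor. With the other DN array left out instead, these values were 2.74 for Cd4, 5.50 for Il12b, -0.52 for Cd86 and -0.74 for Cd80.

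With the experiment number of the titles as a replicate block, 128 probe sets were called (75 higher, 53 lower), among them all 80, with 116 for fresh cells, 207 against CD4+ cells and 0 for the interaction. Among lists with 0 calls, the block called 2 apoptosis genes, 1 pattern recognition gene and 1 costimulation gene higher, and 1 inhibitory or Fc receptor and 1 actin gene lower. It called 1 more higher gene for CD8+ dendritic cells and for macrophages, 1 more lower gene for CD8-negative dendritic cells, and 1 more in each direction for lysosomes and for kinases. Deviations of same-numbered cultured CD8+ and DN arrays correlated at 0.321 (0.106 to 0.444 over all pairs of groups). The labels do not say that arrays of 1 number were made together.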

Other observations

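Among the 80 called probe sets, 2 carried no gene symbol and were named after their values were seen. The higher of these had 722.1 and 634.8 in cultured CD8+ cells, -29.4 and -10.8 in cultured DN cells and -15.1 to 10.6 in fresh CD8+ and DN cells, and was called higher (limma, adjusted p = 0.0361). The cultured CD4+ replicates disagreed on it, with 1252.5 and 46.3. The lower of these had 273.0 and 253.2 in cultured CD8+ and 1039.5 and 668.0 in cultured DN cells (-1.65 ± 0.32, adjusted p = 0.0303).

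The transcripts of largest difference include several with DN values below 0. For Hnrnph3, the fresh arrays had 163.5 and 171.7 in CD8+ and 189.9 and 17.0 in DN cells, beside -292.6 and -251.3 in cultured DN cells. The noise of cultured DN replicate 1 was 82.5 and that of the other 3 arrays 46.0 to 61.4, and its part in these calls was not tested. Ifitm6 and Gatm were brighter in both fresh subsets than in the same cultured subsets, and were called in the same direction in both states.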
